A study of Drosophila melanogaster with 4 samples.

Results

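Ion channels of 5 genes, slo, SK, Shal, para and Ca-alpha1T, hosted 45 of the 2563 circular RNAs (circRNAs) in the deposited table from fly heads. The 45 were taken because the host named in the table was 1 of these genes, and the gene symbol and the RefSeq accession named the same gene in all 45. slo had 17, para 11, SK 8, Ca-alpha1T 8 and Shal 1. A circRNA is a ring that forms when the splice donor at the end of an exon is joined backwards, to the acceptor of that exon or of one further upstream. That joint is called the back-splice junction. The table came from ribosome footprinting in the fruit fly Drosophila melanogaster, in which the RNA fragments shielded by ribosomes are sequenced, so a read on a circRNA is a candidate ribosome-bound fragment. The table does not state that its reads cross the back-splice junction, and they are taken here to do so.

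The study had 2 libraries labelled high detergent and 2 labelled low detergent, all from fly heads and described as ribosome-bound RNA. The labels name no genotype, strain, age or sex. Their protocol divides the samples by head number instead. Heads 1 and 2 followed an older homogenization protocol, and for heads 3 and 4 pools of frozen heads were lysed in a Triton X-100 buffer with cycloheximide. The labels do not tie a head number to a detergent group, so the 4 columns named for heads were not used and high detergent was not compared with low detergent. The values below are the authors' counts over all samples, which carry no replicate error. Each interval is an exact 95% interval that covers counting error only. Intervals on shares treat circRNAs as independent of each other, which circRNAs of the same gene that share an end are not.

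The whole table held 230 reads, on 122 circRNAs. Host genes that mark neurons (brp, Syt1, Rim, Cadps, unc-13 and para among 8 looked for) had 47 listed circRNAs, and elav and nSyb had none in the rows analysed here. For 5 muscle genes there were 16, for 4 of 8 photoreceptor genes 9 (none for ninaE, trp, chp or inaD), and for 3 of 5 glial genes 3 (none for repo or moody). The neuron count includes the 11 para circRNAs described below. Hosts from each marker list were thus present, with some genes of the neuron, photoreceptor and glial lists absent. A count pooled over whole heads cannot tell fewer cells of a type from less RNA per cell.

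As background, the channels of these genes set how neurons fire. para encodes the voltage-gated sodium channel that carries the upstroke of the action potential. slo encodes the large-conductance potassium channel opened by voltage and calcium together, and SK the small-conductance potassium channel opened by calcium alone. Shal encodes a fast inactivating voltage-gated potassium channel, and Ca-alpha1T the pore subunit of a low-voltage-activated (T-type) calcium channel. All are membrane proteins, and their transcripts are cut from many exons and spliced in alternative ways.

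Reads fell on 4 of the 45 channel circRNAs, with 1 read each, on slo, Shal, SK and Ca-alpha1T. That is 8.89% (exact binomial interval 2.48% to 21.2%), against 118 of 2518 in the rest of the table (4.69%, 3.89% to 5.59%) and 4.76% in the table as a whole. The intervals overlap, so the share of the channel circRNAs was not resolved from that of the rest. The 4 reads (exact Poisson interval 1.09 to 10.2) made up 1.74% of all reads. A count of 1 has an interval of 0.0253 to 5.57, so these 4 circRNAs cannot be ordered among themselves, and 96 circRNAs in the table had exactly 1 read. The 11 circRNAs of para had 0 reads (exact Poisson interval 0 to 3.69). The preset floor used here for a count of 0 is 3 of the 230 reads, or 1.30%, and is not the end of that interval. By gene the shares with a read were 1 of 17 for slo (5.88%, 0.149% to 28.7%), 1 of 8 for SK and for Ca-alpha1T (12.5%, 0.316% to 52.7%), 1 of 1 for Shal and 0 of 11 for para (upper limit 28.5%). No gene was resolved from another.

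**Figure D1:**
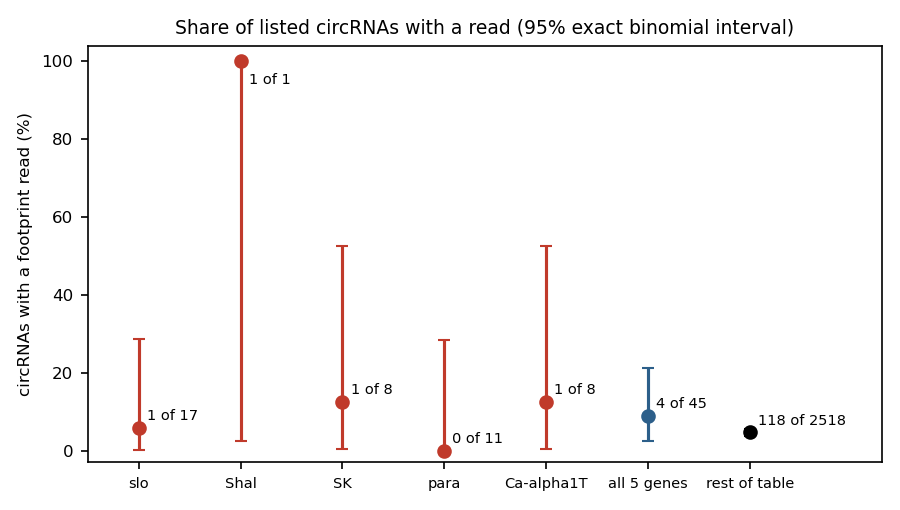
Share of listed circRNAs with at least 1 footprint read (vertical axis, percent) for each channel gene, for all 5 genes together and for the rest of the table; points are shares and bars are 95% exact binomial intervals. The interval of the 45 channel circRNAs, 2.48% to 21.2%, spans the 4.69% of the rest.

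Where each circRNA lies in its gene was read from lengths. The span of a circRNA, the distance on the genome between its ends with introns included, was compared with the lengths of exon blocks in the annotation, meaning 1 exon, or a run of neighbouring exons of 1 transcript with the introns between them. All 45 channel spans equalled such a block, against 76.1% of the whole table. When the spans were altered by 1 to 11 bases, 0 to 2 of the 45 matched. In the 4 genes with several circRNAs, 43 had a single matching block. For all 43, the distance to at least 1 other circRNA of the gene equalled that between the matched exons. That other circRNA could be one with the same first coordinate. For 1 more, of slo, the distances to the gene's other circRNAs chose between 2 blocks. Exon and codon numbers below follow the transcript with the longest coding sequence among those that hold both ends. The length of joined exons takes every annotated exon between the ends as kept, which the table does not show. No other annotated gene had an exon on these channel exons, although 7 of the 45 spans, 6 in para and 1 in SK, held exons of another gene within their introns. Coordinates are dm3, counted from 1.

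The SK circRNA with a read, at X:5245862-5247037 on the plus strand, was a single exon. It was exon 3 of 15, with 1176 bases, and was used by 8 of the 14 annotated SK transcripts. The annotated start codon was the first codon of the exon, and the exon was coding throughout, codons 1 to 392 of 1174. Its 1176 bases are a whole number of codons and hold no annotated stop codon, so the back-splice junction would join codon 392 to codon 1 in the same reading frame. Over the whole table, 4 circRNAs had this arrangement (start codon at the first base, coding throughout, a whole number of codons), and the SK circRNA was the 1 of these with a read and the 1 with a single exon. The introns on its sides were 10131 bp upstream and 23043 bp downstream in the annotation. It shared neither end with another listed circRNA.

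The Shal circRNA, at 3L:19567594-19568159 on the minus strand, was likewise a single exon with a start codon. It was exon 2 of 7 and was present in all 3 annotated transcripts. Of its 566 bases, 364 lay before the start codon and 202 were coding, codons 1 to 68 of 571. The length is not a multiple of 3. Its upstream intron was 9262 bp and its downstream intron 582 bp. Unlike the other 4 genes, Shal had a single listed circRNA, so there was no other to set beside it.

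The Ca-alpha1T circRNA with a read, at X:6026225-6026346 on the minus strand, was a single exon of 122 bases. This was exon 9 of 27, coding throughout, with codons 487 to 528 of 3218, and without a start codon. It was present in all 5 annotated transcripts. Its span was the lowest of any circRNA with a read in the table, where 102 circRNAs of still lower span had 0 reads. The acceptor of this exon also began 4 longer circRNAs of Ca-alpha1T, with spans of 3921 to 12079 bp and 0 reads each.

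The slo circRNA with a read, at 3R:20512909-20513627 on the plus strand, held exons 10 and 11 of 27. Its joined exons of 217 bases were coding throughout, codons 340 to 412 of 1217, again with no start codon. Its donor was used by 4 of 23 annotated slo transcripts together with this acceptor. Another circRNA from the same acceptor, reaching on to exon 13 with a span of 4747 bp, matched all 23 transcripts and had 0 reads. The intron upstream was 7609 bp.

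The spans of the 4 channel circRNAs with a read were 122, 566, 719 and 1176 bp, with a median of 642.5 bp, against a median of 5655 bp (417 to 20060 bp) for the 41 channel circRNAs without a read. The spans of the 2 sets overlapped. Those with a read held 1, 1, 1 and 2 exons, and the other 41 held 2 to 14. A single exon made up 3 of the 45 channel circRNAs, against 19.2% of the matched circRNAs of the table. All 3 had 1 read each (100%, 29.2% to 100%), and of the 42 with more exons 1 had a read (2.38%, 0.0603% to 12.6%). In the rest of the table a single exon went with a read in 33 of 369 matched circRNAs (8.94%, 6.24% to 12.3%) and several exons in 78 of 1528 (5.10%, 4.06% to 6.33%). For span the rest of the table ran the other way, with a median of 1406.5 bp for circRNAs with a read and 988 bp for those without. The divisions by exon number and by span were not planned beforehand. They are descriptions of 4 reads, and no test was made of them.

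**Figure D2:**
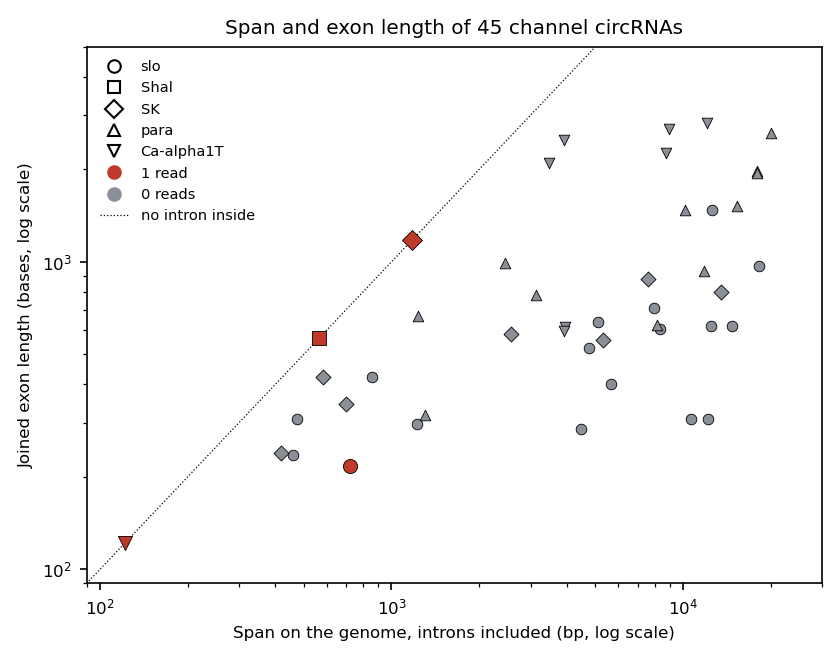
Span on the genome (horizontal axis, bp, log scale) against joined exon length (vertical axis, bases, log scale) for the 45 channel circRNAs, 1 point each, with the gene as symbol and circRNAs with a read in red. The 3 red points on the dotted line are the single exons of Ca-alpha1T, Shal and SK at 122, 566 and 1176 bases, and the fourth red point is slo at a span of 719 bp.

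Start codons were rarer among the channel circRNAs than in the table. Of the 45, 44 came from host genes with at least 8 listed circRNAs. The table was not matched for this in the comparisons of this paragraph. The exons of 3 of the 45 held an annotated start codon in at least 1 matching transcript (6.67%), against 37.6% of the 1941 circRNAs of the whole table matched to a coding transcript. These were the SK and Shal circRNAs with a read and a second SK circRNA, at X:5270081-5277679, which had 0 reads and held a start codon in 5 of 14 transcripts. With a start codon 2 of 3 channel circRNAs had a read (66.7%, 9.43% to 99.2%), and without one 2 of 42 did (4.76%, 0.582% to 16.2%). These intervals overlap, and this division was not planned beforehand. In the rest of the table the corresponding counts were 57 of 727 (7.84%, 5.99% to 10.04%) and 54 of 1169 (4.62%, 3.49% to 5.98%). In the longest coding transcript that matched, 44 of 45 were coding throughout, Shal being the exception, against 66.8% of the matched table. A whole number of codons, which would carry the reading frame on across the junction, was found in 17 of these 44 (38.6%) and in 36.3% of the fully coding circRNAs of the table. By gene it was 7 of 17 for slo, 3 of 8 for SK, 2 of 11 for para and 5 of 8 for Ca-alpha1T. An annotated stop codon lay within 5 of the para circRNAs in at least 1 of the matching transcripts, and within none of the circRNAs of the other 4 genes. That is 5 of 45, against 3.14% of the matched table.

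Back-splice ends were often used more than 1 time. An end was counted as shared where another listed circRNA had the same first or second coordinate. This held for 39 of the 45 channel circRNAs (86.7%), against 45.6% of the whole table. By gene it was 17 of 17 for slo, 7 of 8 for SK, 8 of 11 for para, 7 of 8 for Ca-alpha1T and 0 of 1 for Shal. Genes with more listed circRNAs have more chances to share an end, and 690 of the 1222 host genes in the table had a single circRNA. Among host genes with at least 8 listed circRNAs, the count was 39 of 44 (88.6%) for slo, SK, para and Ca-alpha1T and 271 of 357 (75.9%) for the 33 others, a comparison added after the table had been examined. The 4 with a read were divided, since those of slo and Ca-alpha1T shared an end and those of SK and Shal did not.

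In slo the 17 circRNAs arose from 7 acceptors and 8 donors, of 33 acceptors and 35 donors in the annotation. The acceptor at 3R:20502966 began 4 of them, with spans of 10662 to 18174 bp. The acceptors at 20512909, 20517182 and 20520679 began 3 each, and the donor at 20517655 ended 4. The pair from 20502966 to 20513627 and to 20515149 ended in different exons, yet each held 3 exons with 309 bases in all, one matching 1 annotated transcript and the other 15. The shortest slo circRNA, at 3R:20520679-20521139, spanned 461 bp and held 2 exons found in all 23 transcripts. The longest, at 3R:20502966-20521139, spanned 18174 bp with 8 exons of 967 bases. Counting an exon where at least 1 transcript with both ends holds it, exons 10, 12 and 13 of the longest slo transcript each lay in 8 of the 17 circRNAs and the alternative exon 11 in 7. No listed slo circRNA held an exon before exon 9 or after exon 23 of that transcript, so that its codons 310 to 1006 of 1217 were held. The 4 circRNAs from 20502966 began upstream of exon 9, at an alternative exon that this transcript lacks, and exon 9 itself lay in 1 circRNA. As background, the membrane-spanning part of this channel is encoded first and the calcium-binding tail after it.

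In SK the 8 circRNAs used 5 acceptors and 5 donors of 20 each. The acceptor at X:5277096 began 3, which ended at 3 donors and spanned 584, 5315 and 13538 bp. The shortest, at X:5290217-5290633, spanned 417 bp with exons 10 and 11, and the longest was the one at X:5277096-5290633 with exons 7 to 11. Together the 8 held 12 of the 15 exons of the longest transcript and 78.8% of its coding bases, from codon 1 to 926 of 1174. The intron of 23043 bp after exon 3 lay between the circRNA with a read and the one that starts at exon 4. In all, 3 SK introns lay between the donor of 1 circRNA and the acceptor of another.

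In para, which had no read, 11 circRNAs used 7 acceptors and 8 donors of 36 each. The acceptor of exon 11, at X:16398331 on the minus strand, began 4 of them, with spans of 11852 to 17958 bp. Exon 11 lay in 7 of the 11, through 2 more circRNAs that ended at its donor and 1 that passed over it. The longest channel circRNA of all, at X:16380413-16400472, spanned 20060 bp with exons 8 to 21 and 2621 joined bases. The shortest para circRNA, at X:16376659-16377892, spanned 1234 bp with exons 22 and 23, and a further 2-exon circRNA lay at X:16368480-16369783 with exons 26 and 27. The median para span was 10195 bp, and no para circRNA consisted of a single exon. Exons 5 to 27 bounded the circRNAs, which held 60.2% of the coding bases.

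In Ca-alpha1T the 8 circRNAs used 3 acceptors of 27 and 7 donors of 28. The acceptor of exon 9 at X:6026346 began 5 of the 8, more than any other acceptor or donor of the 5 genes. The one of lowest span was the single exon with a read, and the longest, at X:6014268-6026346, spanned 12079 bp with 10 exons and 2821 joined bases. The acceptor at 6020890 began 2. The remaining circRNA, at X:6005707-6009605, held exons 19 to 25, with 2499 bases in a span of 3899 bp, and shared no end. Together these circRNAs held 55.6% of the coding bases, from codon 487 to 2277 of 3218.

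**Figure D3:**
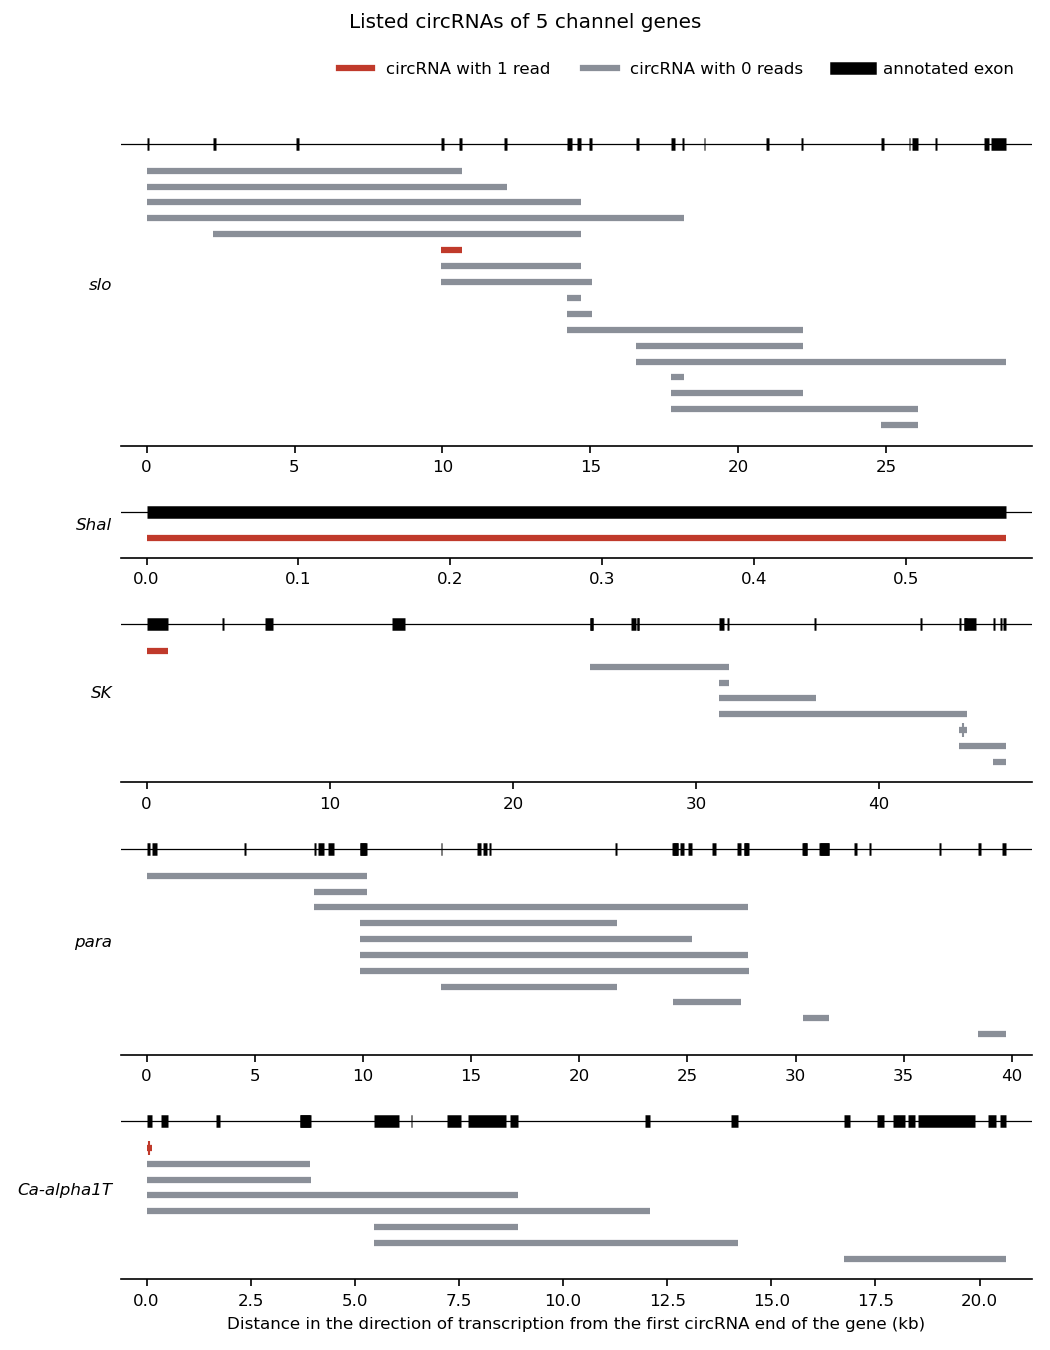
Listed circRNAs of each channel gene as horizontal bars, against the distance in kb along the gene in the direction of transcription from its first circRNA end, with annotated exons in black on the line above; red bars are the circRNAs with 1 read, grey bars have 0 reads, and a tick marks bars too short to see. Bars that start or end at the same place share a back-splice end, as the 5 Ca-alpha1T circRNAs from exon 9 do, and the axis range differs between genes.

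Introns made up most of the channel spans. The median span was 5130 bp, against 1018.5 bp in the rest of the table, yet the median length of joined exons was 618 bases, against 655 bases among the matched circRNAs of the rest. Exons filled a median of 15.2% of a channel span and 65.2% of a span in the rest. The rest was not matched for the number of circRNAs per host gene. By gene the median span was 5655 bp for slo, 1877.5 bp for SK, 10195 bp for para and 3928.5 bp for Ca-alpha1T, and the median joined length was 422, 571, 988 and 2177 bases in the same order. para thus had the longest spans and Ca-alpha1T the longest joined exons. The ranges of all 4 genes overlapped widely.

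The introns next to the circRNA ends were long by the measure of their own genes. In slo, 25 annotated introns adjoined an end, with a median of 2661 bp, against 744.5 bp for the 26 other introns. The medians were 4457 bp (18 introns) against 223.5 bp (8) in SK, 2593 bp (23) against 1297 bp (27) in para, and 2792 bp (10) against 632 bp (21) in Ca-alpha1T. In Shal 3 adjoining introns had a median of 9251 bp, against 589 bp for 6 others. The ranges overlapped in all 5 genes. The longest intron did not adjoin a circRNA in Ca-alpha1T (26845 bp) or in para (7467 bp, against 7441 bp for the longest adjoining one). Set against the rest of the table the medians were lower, upstream with 2593 bp for the channel circRNAs and 3885 bp for the rest, and downstream with 2081 bp and 2319 bp. Alternative transcripts give some ends several introns, so these introns are not independent of each other.

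**Figure D4:**
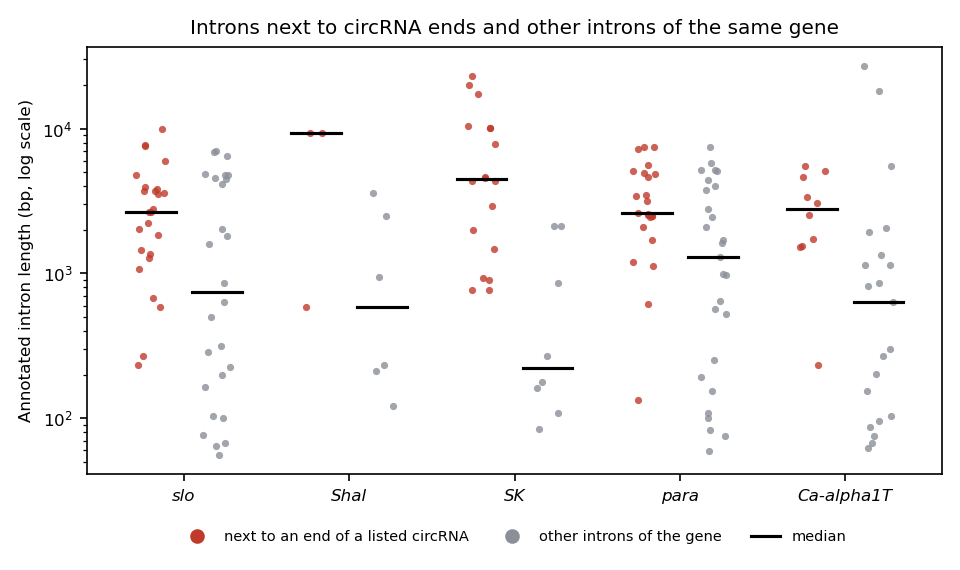
Annotated intron lengths (vertical axis, bp, log scale) in each channel gene, for introns next to an end of a listed circRNA (red, left) and the other introns of the gene (grey, right), 1 point per distinct intron, with black bars for medians. The median of the adjoining introns is the higher in each gene, 4457 bp against 223.5 bp in SK, and the points overlap in all 5 genes.

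Among 34 other genes of voltage-gated and calcium-activated channels, their relatives and their auxiliary subunits, 14 had listed circRNAs in the rows analysed here. They had 42 in all, of which 1 had a read (2.38%, 0.0603% to 12.6%). That was from Shaker (Sh), whose product is a potassium channel opened by voltage, with 28 reads (18.6 to 40.5). The 4 channel circRNAs described above had 1 read each. The Shaker circRNA is named because it alone of the 42 had a read, from genes chosen with earlier results known. PCR duplicates were not told apart, so the difference between 28 reads and 1 was not tested. The most circRNAs without a read were 10 from SLO2, a relative of slo, 9 from cac, the calcium channel of synaptic transmission, 3 from eag, 3 from Hk, an auxiliary subunit of Shaker channels, and 3 from NaCP60E. Shab had 1 and Ca-alpha1D had 1.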

How the data were processed

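Footprint reads were sequenced from heads in 4 libraries. Reads were processed with cutadapt 1.9.1 and coordinates are on dm3, per the submitters' processing notes, and ribosomal RNA reads were removed, per the file headers. How circRNAs were aligned, called and filtered is not given in the sources used. The value used is the authors' deposited whole-number count per circRNA over all samples, not normalized. The table's 4 columns per library could not be tied to the labels and were not used, so no library entered any comparison, no test between groups was made, and no p-value is given. The table's coordinates are taken as given, with the first raised by 1.

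Spans were compared by exact length with exon blocks of Ensembl release 115 (BDGP6), which is on a later build, and coordinates were left unconverted. Host genes came from the symbol or, through RefSeq accessions of NCBI's release 6 table, from the accession. Where a span matched several blocks, the one at the right distance from the gene's other circRNAs was taken (1 of the 45). The matching was run on simulated spans, and the outcome is not given here. Intervals are 95% Clopper-Pearson for shares and exact Poisson for counts, and a count of 0 is taken to allow 3 reads. PCR duplicates are not told apart. The members, the list of other channel genes and the marker genes were chosen with earlier results of these data known. All circRNAs with a read, and the shortest, longest and most shared ends of each gene, are named. Python 3.11.15, pandas 2.3.3, numpy 2.4.6 and scipy 1.17.1 were used.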

Additional observations from a re-analysis of the deposited data

How the results depend on the processing

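At least 2 reads per circRNA left 0 of the 45 channel circRNAs with a read, since all 4 rest on 1 read, so the depth of 230 reads limits every statement on reads. Taking host genes from the symbol or from the accession alone gave the same 45 circRNAs and 4 reads. Counting ends within 10 bases as the same left 39 sharing an end. Allowing 3 bases in the exon match, or keeping only circRNAs at exon ends, could change nothing, since all 45 matched exactly. Requiring the start codon in all matching transcripts left 2 of 3 circRNAs. The median span of 5130 bp was 3302.5 bp with 1 circRNA, the shortest, per first coordinate. No paired analysis was possible because the 4 columns per library could not be tied to the labels' groups or replicate numbers. Those columns were not used in any step, so no library was left out.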
